A study of Arabidopsis thaliana with 83 samples.

Results

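The plastid genome of Arabidopsis thaliana encodes core subunits of the photosynthetic complexes and part of the machinery that expresses them. The genes described here are those whose symbols begin with psa, psb, pet, ndh, rps, rpl or rpo and that lie on the plastid genome. They were taken from probe sets listed with 1 gene, through gene identifiers and the RefSeq annotation (assembly TAIR10.1). This gave 55 genes, each with 1 probe set, of 22810 probe sets on the array. RefSeq lists 62 plastid genes under these prefixes, and the other 7 had no probe set listed with 1 gene and are not analysed here. The 55 comprise 5 genes of photosystem I, 15 of photosystem II, 6 of the cytochrome b6f complex, 10 of the NDH complex, 8 of the small and 7 of the large ribosomal subunit, and 4 of the plastid-encoded RNA polymerase. A filter on low signals removed ndhF and rps14, with mean signals of 8.76 and 12.1, so 53 genes entered the tests. The 55 genes were set by prefix and annotation, without a rule on measured values, but with earlier results of these data known.

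Affymetrix ATH1 arrays were hybridised with RNA from whole seedlings of 7 natural accessions (Col-0, C24, Bl-1, Bur-0, Bay-0, Sha and Fei-0) in an auxin time course labelled 0 h, 30 min, 1 h and 3 h. Each of the 28 groups held 3 arrays, except 2 for Fei-0 at 3 h, which gave 83 arrays. All seedlings shared 5 days of cold, then 7 days of shaken liquid culture at 22 °C under constant light, with yellow filtering in the last 24 h, and no transgene or mutant is named in the labels. Bay-0 carries labels both as an ecotype and as a recombinant inbred line, as the Bay-0 parent of a population, and was taken as Bay-0. No source used here gives an auxin dose or mock-treated controls for the later times, so time in the assay and auxin cannot be told apart. Sample numbers in the titles run through accessions and then times, so neither can be told apart from an order of processing. Nothing in the labels ties replicates to separate cultures, and the p-values reflect the spread among these arrays alone, which may be technical.

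Photosystem II, the cytochrome b6f complex and photosystem I pass electrons along the thylakoid membrane in series, and the NDH complex returns electrons for cyclic flow around photosystem I. Each complex mixes subunits made in the plastid with subunits imported after translation in the cytosol. Most plastid genes are transcribed in operons by a bacterial-type polymerase, whose core is made from rpoA, rpoB, rpoC1 and rpoC2, and by a phage-type polymerase encoded in the nucleus. Plastid messenger RNAs lack the stable poly(A) tails of nuclear ones, and the label here was made with a 3′ in vitro transcription kit that primes on poly(A). The values therefore show how much plastid RNA entered the labelling, and abundance and priming cannot be told apart.

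The plastid genes gave measurable signals across the classes. Mean signal over the 83 arrays exceeded 100, the trimmed mean to which every array had been scaled, for 47 of the 55 genes. Within photosystem I the means ran from 273 for psaC, which binds iron-sulfur clusters, to 2703 for psaB, a reaction-centre protein. Within photosystem II they ran from 58.1 for psbN to 5091 for the small subunit gene psbM, and within the cytochrome b6f complex from 39.6 for petD, subunit IV, to 4488 for petB, cytochrome b6. The NDH genes ended at 3102 for ndhI, the small ribosomal subunit at 3199 for rps4, the large one ran from 254 for rpl14 to 2458 for rpl33, and the polymerase genes from 42.0 for rpoB to 1606 for rpoA. Probe sets differ in brightness for the same amount of RNA, so these means place each gene on its own scale and do not rank the genes.

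Accession accounted for most of the variation in these genes, and Bay-0 stood below the others. Per gene, the sum of squares over 83 arrays was split between accession, time, their combination and replicates. The median share of accession was 65.7% over the 53 plastid genes and 44.1% over the 15922 probe sets tested. Time held a median of 2.27% in the plastid genes against 6.87% over all, accession by time 10.3% against 14.8%, and replicates 21.8% against 25.9%. The accession share reached 90.1% for rps4 and 89.8% for rps2, both of the small ribosomal subunit, and was lowest for rpoA at 17.3% and for the photosystem II gene psbL at 18.2%.

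On each array the median log2 deviation of the 53 genes from their own means over all arrays gave 1 value. The 12 Bay-0 arrays lay between -0.93 and -0.28, with a median of -0.59. Sha came next, with arrays from -0.31 to 0.07, and Col-0 followed with -0.24 to 0.20. The ranges were -0.09 to 0.36 in Bl-1, -0.19 to 0.53 in C24, 0.01 to 0.50 in Bur-0 and 0.01 to 0.80 in Fei-0. At each of the 4 times, every Bay-0 array was below every array of the other accessions, whereas the ranges of neighbouring accessions above Bay-0 overlapped. The pooled SD of replicate arrays within groups was 0.17. The 55 genes together made 1.37% of the summed signal on the median Bay-0 array and 2.32% on the median Bur-0 array.

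**Figure D1:**
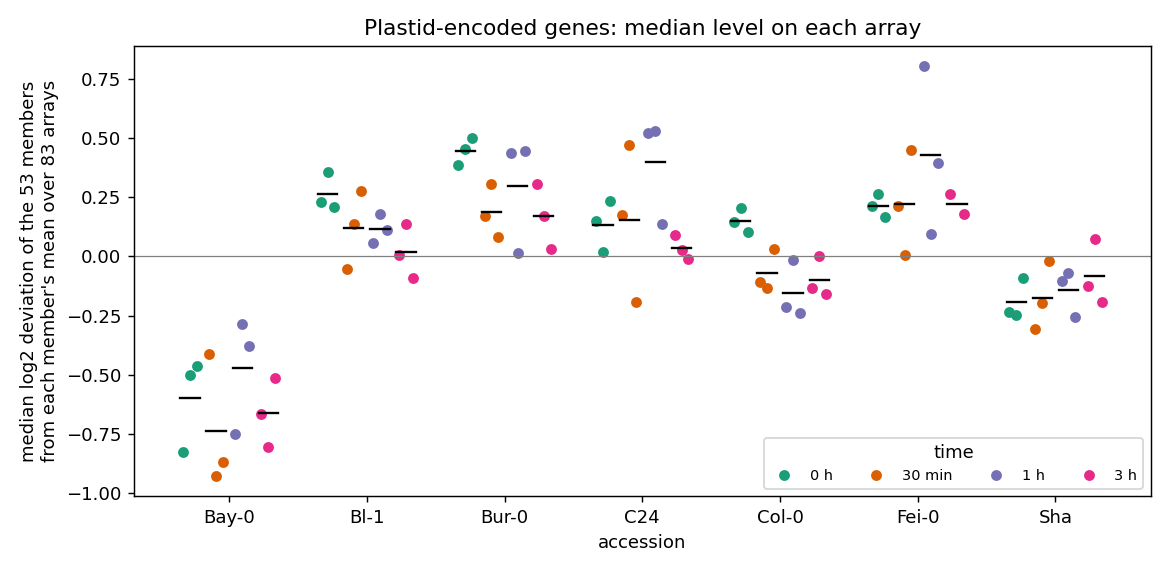
Median log2 deviation of the 53 tested plastid genes on each of 83 arrays (vertical axis), by accession (horizontal axis) and time (colour); black bars are group means. The 12 Bay-0 arrays lie between -0.93 and -0.28, below every other array of the same time.

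A change of at least 2-fold at an adjusted p under 0.05 counts as called below. Between accessions at 0 h, before treatment, 38 of 53 plastid genes (71.7%) differed by limma's F test with a range of at least 1 on the log2 scale, against a background of 23.1% of all probe sets. Bay-0 was the lowest accession for 38 of the 53 genes and Sha for 12, while Bur-0 was the highest for 33. With levels averaged over the 4 times, 31 genes (58.5%) were called against a background of 18%, and the median range was 1.12 against 0.54 over all probe sets. The called genes at 0 h included 11 of 15 photosystem II genes, all 5 of photosystem I, 8 of 9 tested NDH genes, 4 of 6 cytochrome b6f genes, 4 and 3 of 7 in the small and large ribosomal subunits and 3 of 4 polymerase genes. Without the Bay-0 arrays, 25 genes were called at 0 h and 11 in the mean over times. The shares of all probe sets in that fit are not given, so these 2 counts cannot be set against a background.

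The gene rps2, a protein of the small ribosomal subunit, gave the widest range among these genes in levels averaged over the times, at 3.05 log2 units, while psaA did at 0 h alone, at 2.93 against 2.87 for rps2. Its signals in Bay-0 ran from 77.5 to 215 around a median of 156. In C24 they ran from 834 to 1788 around 1408, and medians in the other 5 accessions lay between 571 in Sha and 762 in Bl-1. No Bay-0 array reached the lowest array of any other accession, at 384 in Sha. Bay-0 was 2.25 ± 0.08 log2 units (SE) below the mean of the other 6 accessions (limma adjusted p = 3.13e-38), and C24 was 1.31 ± 0.08 above the mean of its other 6.

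The small photosystem I subunit gene psaJ shared this separation. Its 12 Bay-0 signals ran from 570 to 1192 with a median of 854, and the lowest array elsewhere, in C24, read 1283. Medians of the other accessions lay between 2560 in Sha and 3042 in C24, and their ranges overlapped. The Bay-0 difference was -1.72 ± 0.08 (adjusted p = 2.84e-31). Among the 53 genes, rps2 and psaJ were those for which all 12 Bay-0 arrays lay below all 71 others, a pattern met by 0.421% of all probe sets tested.

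The ribosomal protein gene rps4 followed another order. Signals were highest in Bur-0, from 4717 to 7046 with a median of 6049, then in Fei-0, with a median of 5115 and a range of 3858 to 6578, and in Sha, with a median of 3901 and a range of 3537 to 4348. C24 (median 2280), Bl-1 (1910), Col-0 (1710) and Bay-0 (1526) were lower and overlapped one another. The lowest arrays of Bur-0 and Fei-0 were above the highest array of those 4 accessions, at 3717 in C24, and the lowest Sha array was not. The range of the accession means was 1.95 log2 units (adjusted p = 7.51e-39), and at 0 h alone 1.97.

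The gene rpoB, the beta subunit of the plastid RNA polymerase, went against the rest in Bay-0. Its signals ran from 50.2 to 97.8 in Bay-0, around a median of 67.9, and from 45.7 to 206 in C24, around 117. In the other accessions the medians lay between 15.1 in Col-0 and 28.3 in Bur-0, and the highest array, at 48.9 in Sha, was below all 12 Bay-0 arrays. Signals in these accessions were dim. Their lowest array read 7.62, below the mean signals of ndhF and rps14, which the filter had removed. Bay-0 was 0.92 ± 0.09 above the mean of the other 6 and C24 1.55 ± 0.09 above. The other polymerase genes did not share this order, with Bay-0 at -1.14 ± 0.08 for rpoC2, -0.39 ± 0.09 for rpoC1 and 0.04 ± 0.08 for rpoA, which did not pass the test.

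**Figure D2:**
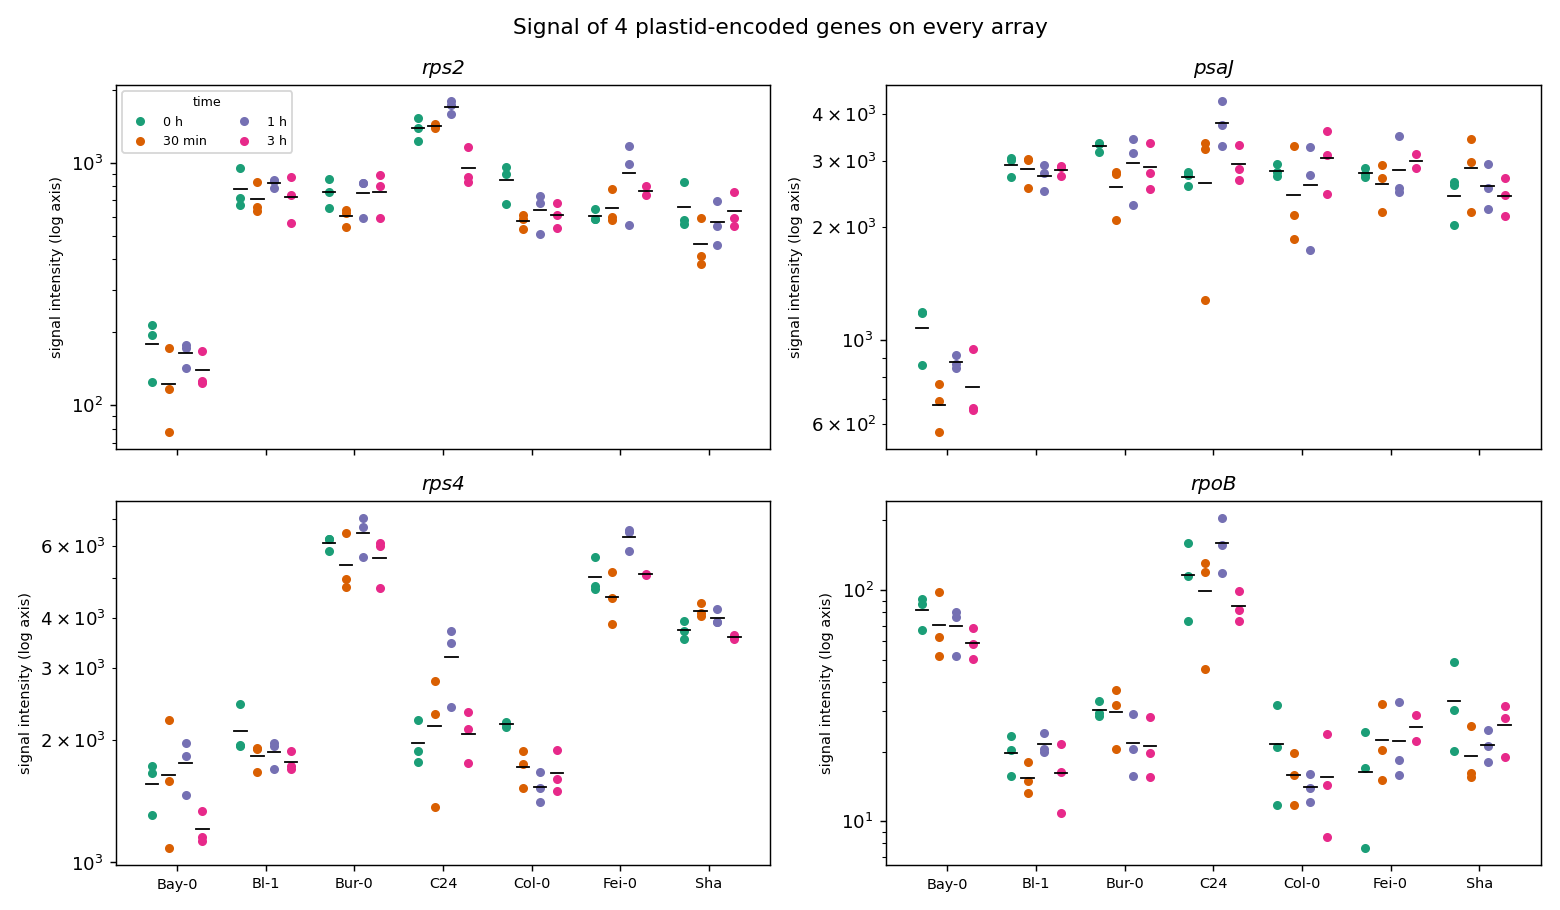
Signal intensity (vertical log axis) of rps2, psaJ, rps4 and rpoB on every array by accession (horizontal axis) and time (colour), with black bars for group means. Bay-0 arrays lie below all others for rps2 and psaJ, Bur-0 medians are highest for rps4 at 6049, and rpoB is high in C24 and Bay-0.

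Across the 53 genes, Bay-0 levels averaged over times were below the mean of the other 6 accessions for 51, with a median difference of -0.74 against -0.01 over all probe sets. Of these, 49 passed the adjusted p alone, against a background of 34.3% lower, and 17 were also 2-fold lower, against 1.6%. With a pseudocount of 64 in place of 16, 49 passed the adjusted p and 6 were 2-fold lower. The shares of all probe sets at that setting are not given. This contrast was chosen after seeing the data. Photosystem I genes had a median of -1.20, with all 5 lower. They included psaA, the partner of psaB in the reaction centre, at -1.68 ± 0.14, whose Bay-0 signals ran from 70.9 to 356 against medians of 224 in Sha to 926 in C24. The iron-sulfur subunit gene psaC was at -1.20 ± 0.10.

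Large ribosomal subunit genes had a median of -0.998, with all 7 lower, led by rpl36 at -1.62 ± 0.11 and rpl14 at -1.20 ± 0.07. NDH genes followed with a median of -0.88 and 9 of 9 lower, and ndhG was at -1.26 ± 0.10. Small ribosomal subunit genes had a median of -0.74 with all 7 lower. In photosystem II, 14 of 15 genes were lower with a median of -0.37. The reaction-centre gene psbD (D2) was at -1.20 ± 0.10 and the antenna gene psbB (CP47) at -1.44 ± 0.13, whereas psbA, which encodes D1, was at -0.37 ± 0.09. The small subunit gene psbM at -0.05 ± 0.10 did not pass. Cytochrome b6f genes had a median of -0.31 with 5 of 6 lower, from petG at -1.22 ± 0.08 and petA, cytochrome f, at -0.95 ± 0.07 to petB at -0.23 ± 0.04 and petL at -0.18 ± 0.09, which did not pass.

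The other accessions showed smaller shifts. Medians over the genes were 0.33 in Bur-0 and 0.31 in Fei-0, with 38 genes higher by the adjusted p in each, against backgrounds of 26% and 30.8%. In Bur-0 the 2-fold higher genes (background 0.641%) were rps4 at 1.24 ± 0.06 and ndhE at 1.01 ± 0.12, and 8 of 9 NDH genes were higher. In Fei-0 all 9 NDH genes and all 5 photosystem I genes were higher, rps4 stood at 1.04 ± 0.06 and psbB at 0.87 ± 0.13. C24 had a median of 0.21 and 30 genes higher against a background of 31.8%. There psaC at 1.13 ± 0.10, psaA at 1.05 ± 0.14, rpoB and rps2 were 2-fold higher, against 0.572%. In Bl-1 the median was 0.14, with rpl36 highest at 0.71 ± 0.11. Col-0 had a median of -0.03, with psbA at -0.72 ± 0.09 and ndhG at -0.75 ± 0.10. Sha had a median of -0.14 and 26 genes lower against a background of 28.3%, led by psaA at -0.73 ± 0.14 and the photosystem II gene psbK at -0.69 ± 0.06.

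**Figure D3:**
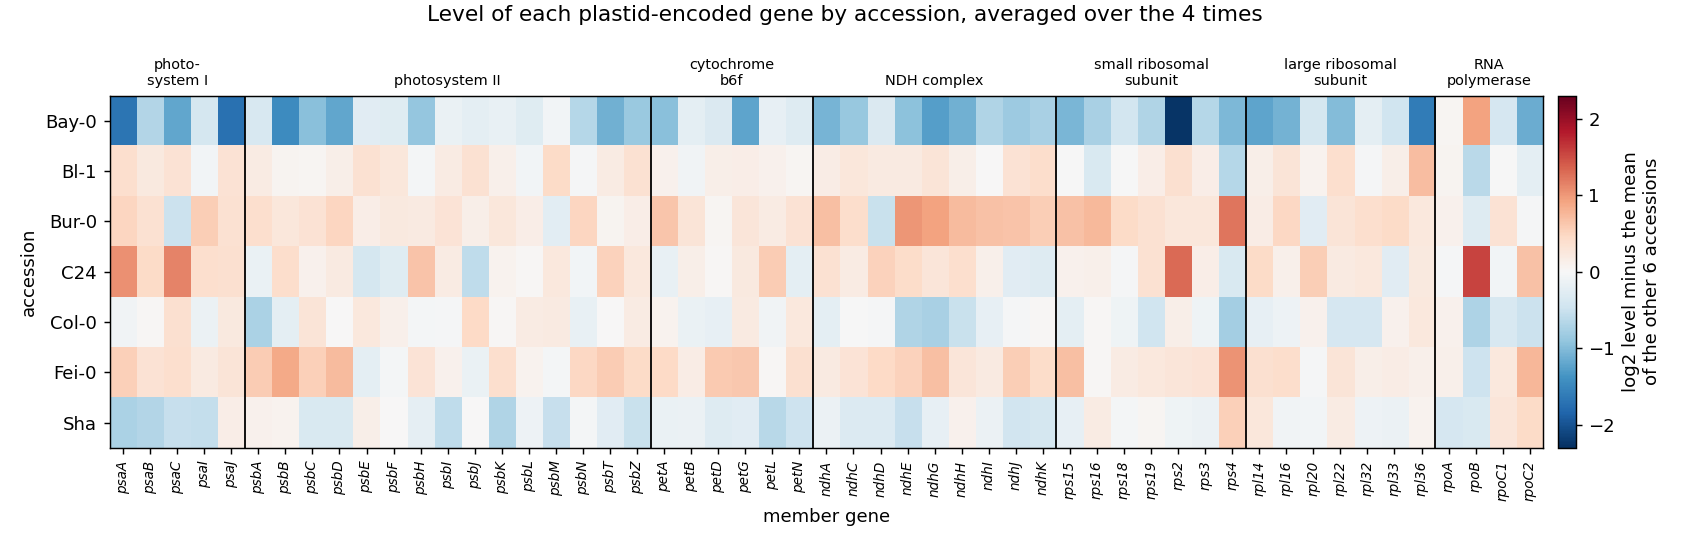
Log2 level of each of 53 plastid genes in each accession minus the mean of the other 6, averaged over the 4 times (colour scale), with accessions in rows and genes in columns ordered by complex. The Bay-0 row is blue for 51 genes, down to -2.25 for rps2, and red for rpoB at 0.92.

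Set against Col-0 at 0 h, a comparison in which all 6 accessions share the Col-0 arrays, 25 of 53 genes (47.2%) were called in at least 1 accession, against 13.9% of all probe sets. Bay-0 gave 16 lower genes and 1 higher, against backgrounds of 4.12% and 2.7%. The psaC signals were 81.2, 102 and 124 in Bay-0 and 375, 299 and 383 in Col-0, a difference of -1.64 ± 0.25. The cytochrome f gene petA read 761, 1149 and 1046 in Bay-0 and 2339, 1989 and 2379 in Col-0 (-1.19 ± 0.19). In both genes the groups did not overlap.

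In Bur-0, 5 genes were 2-fold higher than in Col-0 (background 1.57%), of which ndhE, ndhG and ndhH encode NDH subunits. The ndhG signals were 240, 340 and 329 in Bur-0 and 70.8, 60.6 and 61.0 in Col-0, a difference of 1.98 ± 0.27 with no overlap. ndhG was also higher in Fei-0 by 1.12 ± 0.27, in Bl-1 by 1.04 ± 0.27 and in C24 by 1.01 ± 0.27. Sha had 5 genes 2-fold lower (background 3.28%), namely psaB, psbZ, psbM, petN and rpoA, from -1.074 to -1.002. rpoA read 1378, 553 and 1243 in Sha, and its range over accessions at 0 h was 1.05, or 0.65 without the array at 553 (Sha 0 h replicate 2). The range call of petN (1.05) was also lost without that array, and that of psbK (1.03) without it or Sha 0 h replicate 1. C24 had 3 genes 2-fold higher (background 1.19%), rpoB at 1.80 ± 0.23, ndhE and ndhG, Fei-0 had 3 (background 1.15%), rps4 at 1.197 ± 0.16, ndhG and ndhE, and Bl-1 had ndhG alone (background 1.04%). C24 had 1 gene lower (background 2.26%), the small photosystem II subunit psbJ, at 628, 535 and 625 against 1281, 1219 and 1261 in Col-0, and its range of 1.06 fell to 0.98 without C24 0 h replicate 2.

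Some other measures moved with the Bay-0 difference and others did not. The 14 further plastid-encoded genes on the array, outside the prefixes used here, had a Bay-0 median of -0.53 with 13 lower by the adjusted p, including the ATP synthase genes atpH at -1.42 ± 0.11 and atpF at -1.30 ± 0.09. The 8 tested mitochondrially encoded genes had a median of 0.13, with none lower and 3 higher. All 6 measured nuclear-encoded partners of the photosystems and the NDH complex were also lower in Bay-0. The photosystem I genes PSAN and PSAE-1 were at -1.04 ± 0.05 and -0.60 ± 0.05, the photosystem II genes PSB27, PSBW and PSBY at -1.43 ± 0.05, -0.52 ± 0.05 and -0.41 ± 0.05, and NdhL at -1.36 ± 0.06. The 1 tested nuclear gene of a plastid ribosomal protein, AT1G77750, was at 0.10 ± 0.05 and did not pass (adjusted p = 0.0534). Few nuclear partners have a listed probe set here, 2 of 13 names for photosystem I, 3 of 14 for photosystem II and 1 of 23 for NDH.

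In Sha these 6 partners were lower too, from -0.81 ± 0.05 for PSAN to -0.45 ± 0.05 for PSBW. Of 13 shoot markers 2 were measured, LHCB4.2 and RCA, and their summed signal ran from 2849 to 4491 in Bay-0, from 2299 to 4447 in Sha and from 3627 to 8534 elsewhere. Of 12 root markers 3 were measured, and their sum ran from 3042 to 4681 in Bay-0 and from 3201 to 5962 elsewhere, and neither list had a tested marker at 0. The bright marker PYK10 made up most of the root sum and was at -0.20 ± 0.04 in Bay-0. The dim root markers EXPA7 and EXPA18, both expansins of root hair cells, were higher, by 0.49 ± 0.08 and 0.35 ± 0.07 in Bay-0 and by 0.76 ± 0.08 and 0.67 ± 0.07 in Sha. The part of these markers in the plastid values was not tested. The greening marker PORB was lower in Bay-0 by -1.04 ± 0.06 and in Sha by -1.38 ± 0.06. Fewer green cells and less plastid RNA per cell cannot be told apart in whole seedlings.

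The 25S ribosomal RNA control signal, from another RNA without a poly(A) tail, had a median of 344 in Bay-0 against 847 in C24 and 3033 in Bur-0, with the other accessions between these. The ratio of 3′ to 5′ GAPDH probe signals, a measure of RNA integrity, had a median of 1.83 in Bay-0 against 1.53 to 2.23 elsewhere. The same ratio for actin set Bay-0 and C24 apart, with medians of 3.64 and 3.29 against 17.7 to 73.6 in the other 5 accessions, and its part in the Bay-0 difference was not tested. With the 25S signal as a covariate 40 genes were lower in Bay-0 by the adjusted p and 13 by 2-fold, and with the GAPDH ratio 49 and 15. Every group kept its own mean in these fits, so the covariate slopes came from replicates within groups alone. The part of the 25S and GAPDH differences between accessions in the Bay-0 difference was therefore not tested either. Shares of all probe sets under these fits are not given. The array's probes follow the Col-0 reference sequence, so a lower level and a mismatched probe cannot be told apart for a single gene such as rps2.

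The response to the treatment shared by the 7 accessions was small in the plastid genes. No gene was called at 30 min, 1 h or 3 h at the 2-fold limit, where 0.609%, 0.81% and 0.685% of all probe sets were called higher and 0.119%, 0.151% and 0.59% lower. At an unadjusted p under 0.05, limma gave 18 genes lower and 0 higher at both 30 min and 3 h, and at 1 h 7 lower and 4 higher. The share of all probe sets at this unadjusted limit is not given, so these counts cannot be set against a background. By the adjusted p alone, 10 fell at 30 min (18.9%, background 12.9%), 3 rose and 3 fell at 1 h (5.66% each, backgrounds 15.1% and 16.2%) and 12 fell at 3 h (22.6%, background 21.6%). Without the Bay-0 arrays, or with the 25S ribosomal RNA signal as a covariate, 6 fell at 30 min, and the shares of all probe sets in those fits are not given. None rose at 30 min or 3 h, where the backgrounds were 10.7% and 22.2%. The median change was -0.13, -0.01 and -0.12 at the 3 times, against -0.03, -0.01 and 0.01 over all probe sets. In the same arrays GH3.3, an auxin-inducible gene, rose by 4.23, 5.34 and 5.20.

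At 30 min the genes that fell came from all 7 classes. The largest change was in psaA, at -0.39 ± 0.14 (limma adjusted p = 0.0354), lower in 7 of 7 accessions. rps2 was at -0.26 ± 0.07, lower in 5 of 7. The neighbouring ribosomal protein genes rps19, rpl22 and rps3 were at -0.24 ± 0.06, -0.24 ± 0.06 and -0.22 ± 0.06, each lower in 6 of 7. In Bay-0, rpl22 read 780, 867 and 974 at 0 h and 605, 553 and 503 at 30 min, and in Col-0 it read 1054, 1081 and 1058 against 962, 849 and 919. The arrays of the times did not overlap in either accession. Both accessions are chosen examples. How often groups of 3 arrays fail to overlap over all probe sets is not given, here or for the other genes described. The remaining genes were ndhH, rpoC2, psbH, ndhI and petB, from -0.24 to -0.13. The highest estimates at this time were 0.18 ± 0.10 for petN, 0.11 ± 0.08 for ndhJ and 0.09 ± 0.09 for ndhK, none of which passed. Leaving out 1 array at a time kept rps2, rps19, rpl22, rps3 and petB past the adjusted p in every case. In contrast, psaA lost its call without any of 11 arrays, ndhH of 17, rpoC2 of 21, psbH of 3 and ndhI of 2. With a whole replicate number left out, the calls of rps2, rps19 and petB did not hold throughout. Their changes then ran from -0.35 to -0.19, from -0.29 to -0.17 and from -0.17 to -0.08.

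At 1 h petL, a small cytochrome b6f subunit, rose by 0.28 ± 0.09, ndhJ by 0.22 ± 0.08 and ndhC by 0.13 ± 0.05, each higher in 5 of 7 accessions. psaA fell by 0.41 ± 0.14 (lower in 5 of 7), ndhH by 0.26 ± 0.09 and rpl22 by 0.15 ± 0.06 (lower in 6 of 7 each). With the GAPDH ratio as a covariate none rose and 6 fell at this time. Leaving out 1 array, Sha 0 h replicate 2, left 1 gene higher, and leaving out Bay-0 0 h replicate 1, Bur-0 1 h replicate 1 or 3 or Fei-0 1 h replicate 1 gave 5 lower. petL and psaA passed whichever single array was left out, and ndhC, ndhJ, ndhH and rpl22 did not. With a whole replicate number left out, the calls of petL and psaA did not hold throughout. The change of petL then ran from 0.20 to 0.34 and that of psaA from -0.56 to -0.25.

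At 3 h, 8 of the 12 genes that fell encode ribosomal proteins, 5 of 7 small and 3 of 7 large subunit genes, and psbB, psbI, ndhA and ndhI made up the rest. The largest changes were in psbB at -0.31 ± 0.13, rpl33 at -0.30 ± 0.07 (adjusted p = 0.000725) and rps18 at -0.29 ± 0.08, each lower in 6 of 7 accessions. ndhI at -0.20 ± 0.05 and rps16 at -0.19 ± 0.07 were lower in 7 of 7. The 3 highest estimates, 0.08 for petL, 0.07 for psaC and 0.06 for petN, did not pass. No polymerase, photosystem I or cytochrome b6f gene passed at 3 h. Leaving out single arrays ended the calls of psbB (any of 20 arrays), rpl16 (7), rps4 (8), rps16 and psbI (3 each), and of no other gene of the 12. With a whole replicate number left out, the calls of rps18, rpl22, rps19, ndhI and ndhA did not hold throughout either. Their smallest falls were then -0.19, -0.14, -0.16, -0.15 and -0.18. Nuclear photosynthesis genes fell at 3 h, with both photosystem I, all 3 photosystem II and all 3 light-harvesting genes measured passing the test at medians of -0.33, -0.42 and -0.44, and both shoot markers passing at a median of -0.45. LHCB4.2 counts in both the light-harvesting and the shoot list. The background of lower probe sets at 3 h was 21.6%. The greening marker PORB rose by 0.39 ± 0.06 and passed.

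**Figure D4:**
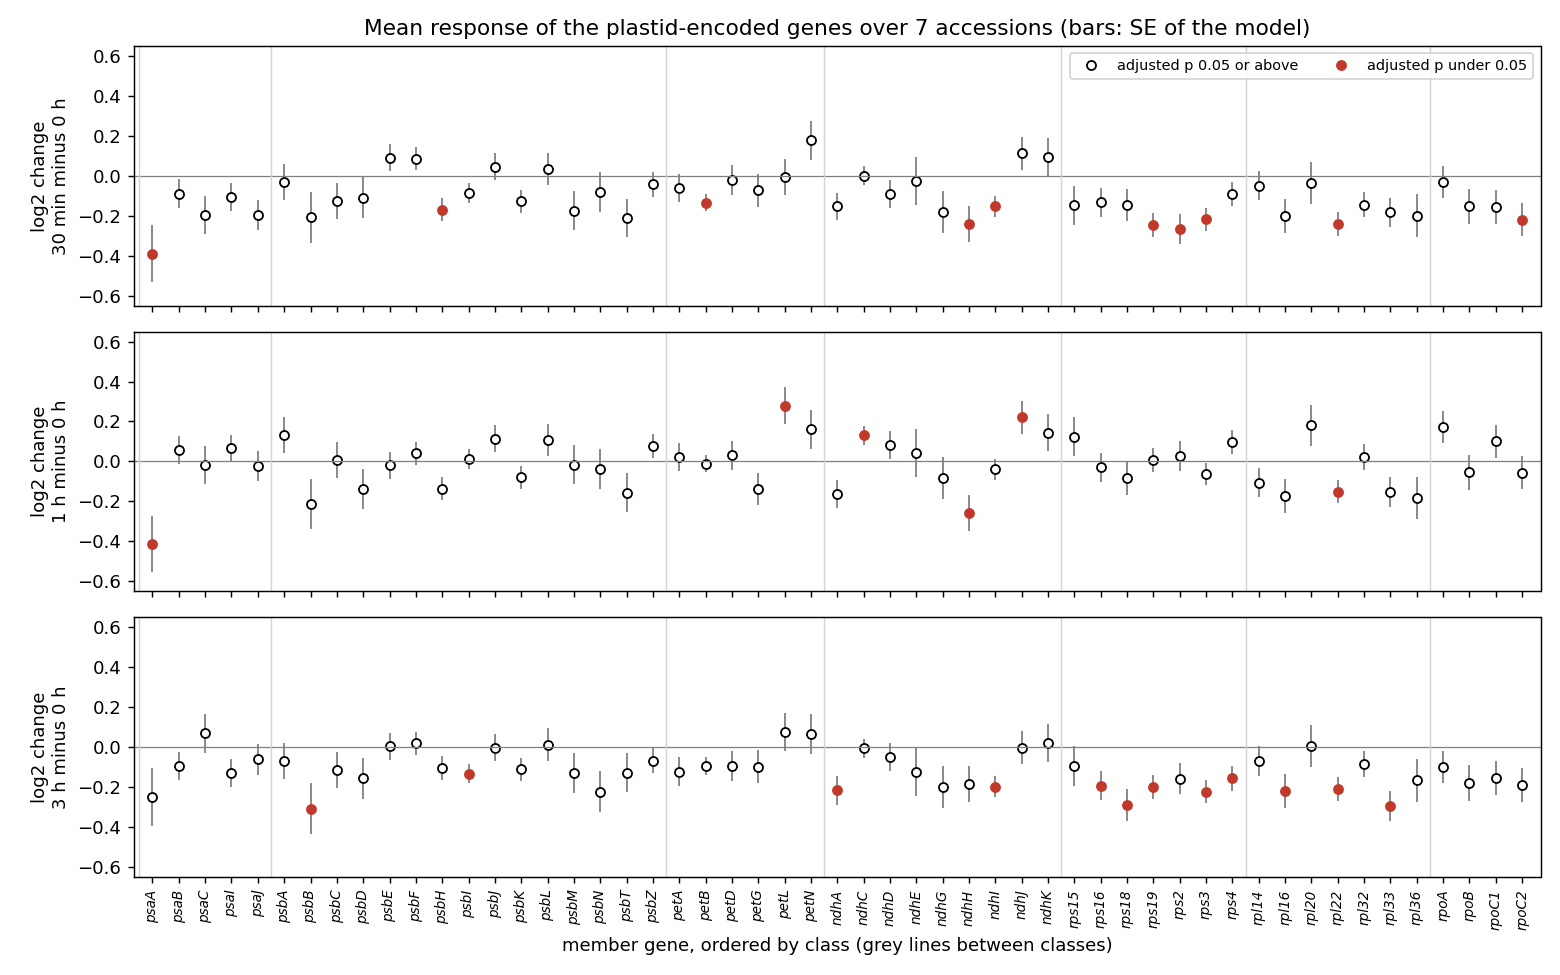
Mean log2 change over 7 accessions at 30 min, 1 h and 3 h (panels, vertical axes) for each of 53 plastid genes (horizontal axis, by complex), with bars for SE; filled points passed the adjusted p. All points lie between -0.41 and 0.28, and 10, 6 and 12 passed.

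In single accessions 3 of 53 genes (5.66%) were called in at least 1 of the 21 responses, against 10.7% of all probe sets, and all 6 calls were decreases. Without Bay-0 0 h replicate 3 the count was 1, and without Bur-0 0 h replicate 1 it was 5. The photosystem I gene psaA in Bur-0 read 1106, 1132 and 1044 at 0 h, 541, 1072 and 683 at 30 min, then 403, 155 and 481 after 1 h and 393, 468 and 381 after 3 h. The 1 h and 3 h arrays did not overlap those of 0 h. The changes were -1.75 ± 0.37 at 1 h and -1.37 ± 0.37 at 3 h. In Sha psaA read 230, 774 and 304 at 0 h and 112, 167 and 210 at 30 min, a change of -1.18 ± 0.37. That call was lost without the 0 h array at 774 (Sha 0 h replicate 2), where the change was -0.69, or without Sha 30 min replicate 1.

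The ribosomal protein gene rpl36 in Bay-0 read 289, 364 and 424 at 0 h, 207, 154 and 150 at 30 min, then 134, 175 and 174 after 1 h and 154, 177 and 412 after 3 h. The 30 min and 1 h arrays lay below all 0 h arrays, and 1 array at 3 h was as high as at 0 h. The changes were -1.005 ± 0.28 at 30 min and -1.07 ± 0.28 at 1 h. The first was lost without Bay-0 0 h replicate 2 or 3 or 30 min replicate 2 or 3, and the second without 0 h replicate 3 or 1 h replicate 1. For rpl33 in Bay-0 the signals were 2136, 2692 and 2813 at 0 h and 1497, 841 and 1376 at 3 h with no overlap (-1.06 ± 0.19), and the call was lost without 0 h replicate 3 or 3 h replicate 2.

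The 53 genes often shared a sign within an accession and time. In Col-0 at 1 h all 53 estimates were below 0, with a median of -0.34, and 3 passed the adjusted p (background 3.82% lower). In C24 at 1 h 48 were above 0 with a median of 0.30 and 5 passed (background 7.86% higher), and in Fei-0 at 1 h 45 were above 0 with a median of 0.24. At 3 h 52 were below 0 in Bl-1 (median -0.24) and 50 in Bur-0 (median -0.25), where 11 fell by the adjusted p against a background of 15%. Over all probe sets the median was -0.05 in Col-0 and 0.01 in both C24 and Fei-0 at 1 h. At 3 h it was -0.03 in Bl-1 and 0.03 in Bur-0. Of the 53 genes, 2 rose by the adjusted p in Fei-0 at 1 h and 2 fell in Bl-1 at 3 h. The share of all probe sets on each side of 0 is not given. Each response uses the same 3 arrays at 0 h for all genes, so the signs of the genes in 1 response are not independent. The median GAPDH 3′ to 5′ ratio also shifted between these groups. From 0 h to 1 h it went from 2.86 to 1.97 in Col-0, 1.68 to 2.56 in C24 and 1.86 to 2.81 in Fei-0. From 0 h to 3 h it fell from 2.57 to 1.62 in Bl-1. In Bur-0 it rose from 1.65 to 2.01, against the direction of the genes. The part of this ratio in the shared signs was not tested.

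The response differed between accessions, by limma's F test with a range of at least 1, for 4 of 53 genes at 30 min (7.55%, background 9.14%), 7 at 1 h (13.2%, background 7.33%) and 4 at 3 h (7.55%, background 11.2%). At 1 h these were rps4, rpoA, rpl36, psaA, psaB, psbA and petL. For rps4, Col-0 read 2184, 2210 and 2159 at 0 h and 1410, 1674 and 1528 at 1 h, while C24 read 1769, 1877 and 2240 before treatment and 3474, 3717 and 2414 after 1 h. The 2 times did not overlap in either accession and moved in opposite directions, by -0.51 in Col-0 and 0.68 in C24. With the GAPDH ratio as a covariate 1 gene was called at 1 h in place of 7. Without C24 1 h replicate 3 the count was 14 and without Fei-0 1 h replicate 2 it was 13.

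At 3 h the gene psbE, a subunit of cytochrome b559 in photosystem II, ranged from -0.63 in Bur-0 to 0.54 in Sha. Its Bur-0 signals were 810, 825 and 823 at 0 h and 719, 468 and 431 at 3 h, with no overlap. In Sha they were 588, 314 and 720 at 0 h and 803, 852 and 622 at 3 h, which overlapped. The count of 4 at 3 h became 2 without Bay-0 3 h replicate 1, Bl-1 0 h replicate 2, Bur-0 0 h replicate 1 or 2, Bur-0 3 h replicate 3 or Sha 3 h replicate 1. At 30 min the 4 genes were psbN, rps3, rpoA and rpl36, and the count became 1 without Bay-0 0 h replicate 3 or Bay-0 30 min replicate 2 or 3, and 7 without Sha 0 h replicate 3.

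**Figure D5:**
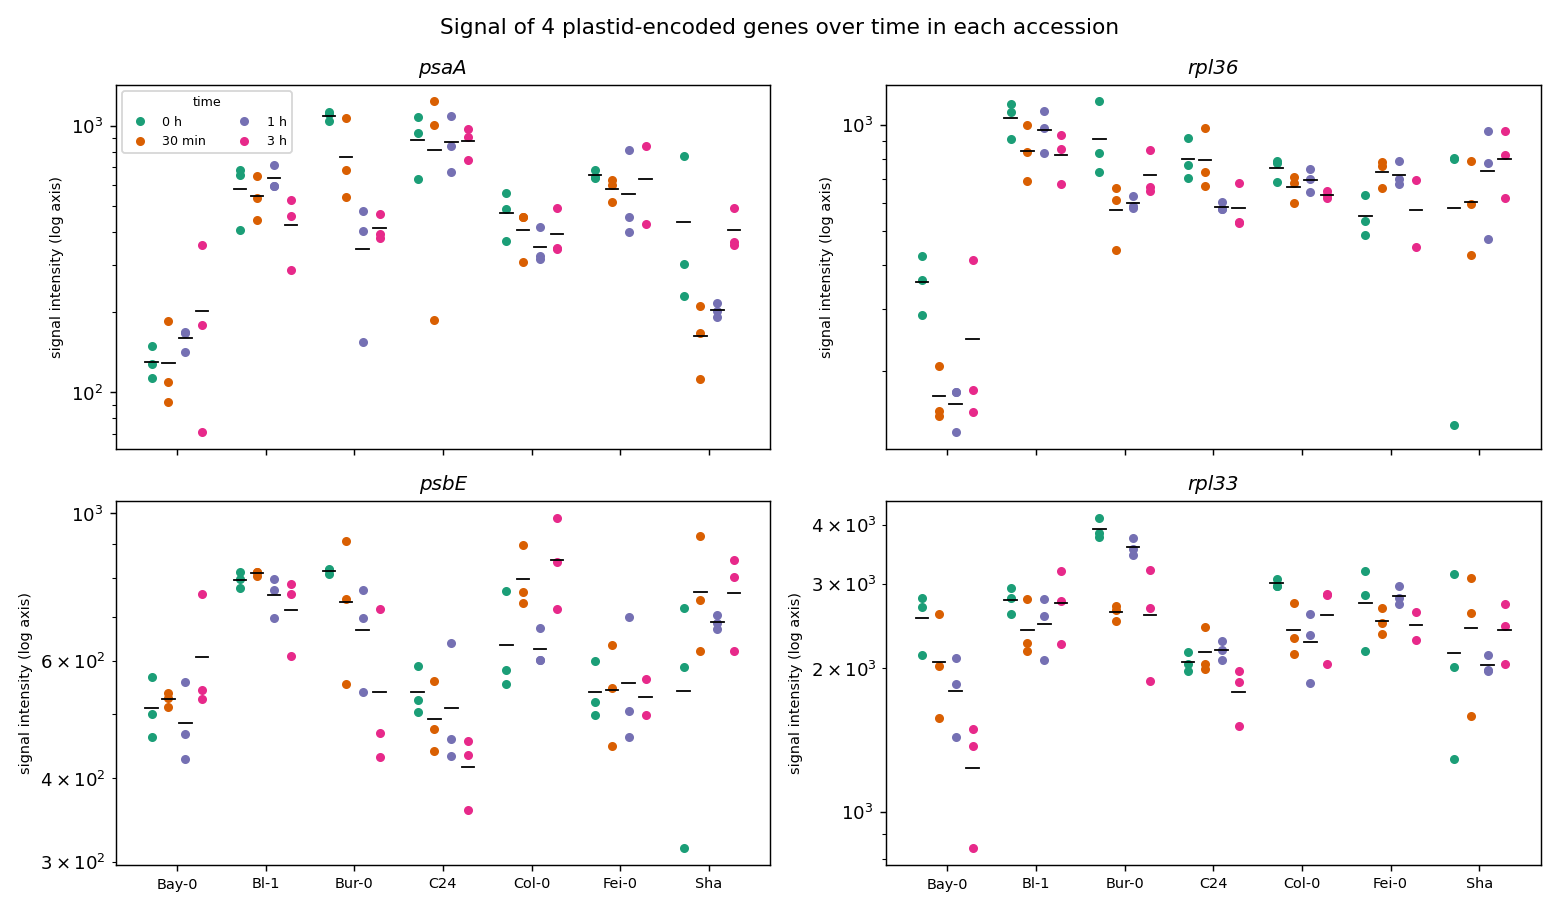
Signal intensity (vertical log axis) of psaA, rpl36, psbE and rpl33 on every array by accession (horizontal axis) and time (colour), with black bars for group means. psaA in Bur-0 goes from 1044 to 1132 at 0 h to 155 to 481 at 1 h, and rpl36 in Sha has 1 array at 0 h, at 141, far below the other 2.

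Among the replicate arrays of a group, the plastid genes deviated together. After group means were removed, the correlation between 2 plastid genes over 83 arrays had a median of 0.38 in 1378 pairs, and 97.0% of pairs were above 0, against a median of 0.003 in pairs of nuclear-encoded probe sets. Pairs next to each other on the plastid genome had a median of 0.48 (41 pairs) and pairs of 1 operon 0.43 (69 pairs), and pairs of different complexes still had 0.38. The operon of psbD, psbC and psbZ had a median of 0.67, that of rpoB, rpoC1 and rpoC2 0.61, and that of ndhC, ndhK and ndhJ 0.28. All pairs share the same arrays and labelling reactions.

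Over the 28 group means, pairs of 1 operon had a median correlation of 0.81 against 0.55 for other pairs. The psbD operon was at 0.90, the ndhC operon at 0.87, and the ribosomal protein operon with rps19, rpl22, rps3, rpl16, rpl14, rpl36 and rpoA at 0.82. The rpoB operon was at 0.04, and rpoB had the separate order of accessions described above. The array median of the 53 genes had, on residuals, a correlation of 0.81 with the other plastid genes, 0.55 with the mitochondrially encoded ones, 0.47 with the GAPDH ratio and 0.16 with the 25S signal. Over the arrays, with group means kept, these were 0.93, 0.13, 0.39 and 0.58 in the same order. For the actin ratio the correlation was 0.03 on residuals and 0.35 over the arrays. Of the 53 genes, 50 had a residual correlation above 0 with the GAPDH ratio, with a median of 0.33 against 0.03 over all probe sets.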

How the data were processed

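The authors deposited signal intensity on a linear scale, 1 value for each probe set on each array, made with MAS5 and GCOS per the submitters' processing notes, without stated versions. Without the lowest and highest 2% of values each array averaged 100, so the deposited intensity values had been scaled. Here log2(signal + 16) was taken, and probe sets in the lowest 30% by mean were dropped, so that 15922 remained. Fold changes on this scale understate changes of dim genes. The software was R 4.3.3 with limma 3.58.1. Each model had 1 mean per group, a trended prior and Benjamini-Hochberg adjustment over all probe sets tested, with 55 residual and 13.2 prior degrees of freedom. A call needed an adjusted p under 0.05 and at least 2-fold, or for F tests a range of at least 1.

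The plastid genes, comparison lists and named genes were chosen with earlier results of these data known. Named genes were called genes, the 3 largest changes each way at each time, the highest and lowest mean signal of each class and the smallest p-values of each F test; others are examples from single accessions. The lists of nuclear cytochrome b6f and plastid transcription genes had no listed probe set, and the lists of nuclear plastid ribosomal proteins and RNA processing had 1 and 2 tested genes. Probe sets of these plastid genes listed with several genes, 9 in all, were not used. No sequences were printed. Same-numbered replicates of an accession did not deviate together (median residual correlation 0.01 in 123 pairs, range -0.35 to 0.25), so numbers were not treated as pairs. Replicate arrays correlated at 0.964 to 0.991. The number of arrays limits the precision.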

Additional observations from a re-analysis of the deposited data

Results flagged for a closer look

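Groups of 3 arrays are too small for a test of single outlying samples, and none was made. The results below are the 15 cases in which the difference in response between the 7 accessions was itself tested and passed, and each value is the range between the lowest and highest accession on the log2 scale, with limma's adjusted p.

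At 30 min psbN had a range of 1.61 (adjusted p = 0.00394), from -0.64 in Bur-0 to 0.97 in Sha. rps3 had 1.00 (0.00581), from -0.70 in Bay-0 to 0.30 in C24, rpoA 1.02 (0.0210) and rpl36 1.41 (0.0267), both lowest in Bay-0. At 1 h psaA had a range of 2.02 (0.0254), from -1.75 in Bur-0 to 0.27 in Bay-0. rpl36 had 1.70 (0.0103), from -1.07 in Bay-0 to 0.62 in Sha, where 1 of the 3 arrays at 0 h read 141 and the other 2 read 798 and 805. At the same time rps4 had 1.19 (0.00187), petL 1.19 (0.0168), psbA 1.11 (0.0374), psaB 1.07 (0.0129) and rpoA 1.02 (0.00772), and all 5 of these were lowest in Col-0. At 3 h rpl33 had 1.31 (0.00276), from -1.06 in Bay-0 to 0.24 in Sha. psbE had 1.17 (0.000837) and petG 1.096 (0.0413), both from Bur-0 to Sha, and rpl20 had 1.15 (0.0476), from -0.58 in Bay-0 to 0.57 in Fei-0. Leaving out single arrays ended none of the calls of psbN at 30 min, rps4, rpl36 and petL at 1 h, and psbE and rpl33 at 3 h. It ended each of the other 9 in at least 1 case, that of rpl20 at 3 h in 46. With a whole replicate number left out, the calls that single arrays had not ended did not hold throughout either. Their lowest ranges were then 1.38 for psbN, 0.99 for rps4, 1.64 for rpl36, 1.09 for petL, 0.80 for psbE and 0.95 for rpl33.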

How the results depend on the processing

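Apart from the main setting, 95 alternatives were run, among them each of the 83 arrays left out. The covariates and the contrast of Bay-0 with the other accessions were chosen after seeing the data. No called gene changed direction under any of these alternatives. Shares of all probe sets called under them are not given, so the counts below cannot be set against a background. The genes 2-fold lower in Bay-0 numbered 17, and 16 to 20 when replicates or single arrays were left out. With a pseudocount of 64 these were 6, the calls against Col-0 at 0 h 16 in place of 25, and the differing responses 2 at 30 min and 2 at 3 h in place of 4. With a pseudocount of 1 the calls in single accessions were 6 in place of 3 and the differing responses at 3 h 2, and without the filter on low values also 2. Without the Bay-0 arrays 6 genes fell at 30 min in place of 10, 1 gene was called in single accessions, responses differed for 1 gene at 30 min and 1 at 3 h, the level differed for 25 at 0 h and 11 over times, and 12 were called against Col-0. With the GAPDH ratio as a covariate, at 1 h 0 rose, 6 fell and 1 response differed, and with the 25S signal 6 fell at 30 min. The cause of these shifts was not tested. Leaving out replicates or single arrays gave 1 to 10 calls in single accessions, 0 to 1 higher (1 without C24 30 min replicate 3) and 5 to 14 lower at 30 min, 0 to 4 higher and 1 to 5 lower at 1 h, 3 to 15 lower at 3 h, and 1 to 8, 1 to 14 and 2 to 6 differing responses at 30 min, 1 h and 3 h. The median change at 1 h, -0.01, ran from -0.05 to 0.02, so it has no settled sign. The replicate number as a block gave 11 lower at 30 min, 11 at 3 h and 8 differing responses at 1 h, and it moved no count by over 1.5 times. No scaling moved the median of all probe sets at 3 h beyond 0.01.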
